A study of Rattus norvegicus with 12 samples.

Results

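The motile cilia and axonemal genes described here are 71 of the 17268 genes in the count table of the series. They were taken by gene symbol: 12 genes named Dnah, 5 named Dnai, 32 named Cfap, 6 named Rsph and 10 named Spag, each followed by a number, plus Hydin, Ccdc39, Ccdc40, Tekt1, Tekt2 and Ak7. Of the 71 genes, 54 had enough counts to be tested in at least 1 of 4 comparisons and 44 in all 4. The other 17 had too few counts in every comparison (Ak7, Cfap100, Cfap161, Cfap206, Cfap221, Cfap44, Cfap58, Cfap73, Cfap97d1, Cfap97d2, Dnah14, Dnah7, Dnai2, Rsph4a, Spag11a, Spag17 and Tekt2), and 2 of these, Cfap97d1 and Spag11a, had no count in any library.

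A motile cilium beats because dynein motors, anchored along the microtubule doublets of its core (the axoneme), slide neighbouring doublets past each other. Dynein heavy and intermediate chains form the motors, radial spokes and the central apparatus regulate them, and tektins and other microtubule inner proteins stiffen the doublets. In the brain, motile cilia stand on ependymal cells, which line the ventricles and move cerebrospinal fluid, and on choroid plexus epithelium. Neurons and astrocytes of the cortex instead carry a primary cilium that lacks dynein arms.

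RNA was sequenced from the cerebral cortex of 12 adult male Sprague Dawley rats, with 1 library per rat and 3 rats in each of 4 groups. In Sham, surgery was done and no clot was given. Model rats received a blood clot in the middle cerebral artery and no treatment, rt-PA rats received the same clot and recombinant tissue plasminogen activator, a clot-dissolving enzyme, at 6 h, and rt-PA+Acu rats additionally had acupuncture at the points GV26 and PC6 at 2 h. No group carried an engineered allele.

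Libraries held 11678450 to 13616935 counts in all, and 3 counts in a library stood for 0.208 to 0.262 CPM (counts scaled to library size by the TMM method). The axonemal genes were mostly low. Spag9, a scaffold for kinase signalling and motor adaptors that carries the family name, made up 48.1% of the summed CPM of the 71 genes. The genes with the highest mean CPM were Spag9, Cfap36, Cfap97, Ccdc39, Cfap70, Spag7, Cfap20, Cfap298, Cfap69 and Cfap20dc. CPM is not corrected for transcript length, which was not used here, so this order is one of counts and not of transcript number.

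The markers of ependymal cells were sparse in these cortex libraries. Tmem212 had 15 counts in Sham replicate 1 and 0 in the other 11 libraries, Pifo had at most 2 counts in a library, Mia at most 6, Dynlrb2 at most 18 and Ccdc153 between 4 and 28. Enkur, Tppp3 and Rarres2, which other brain cells can also express, had more. Foxj1 was not analysed here. In bulk tissue, fewer cells of a type and less RNA per cell cannot be told apart.

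Sham replicate 1 stood apart from all other libraries in these genes. It was the highest of the 12 libraries at 29 of the 69 members with a count, against 8.93% of all genes with a count. Within Sham it was the highest of the 3 libraries at 34 of the 51 members tested in Model vs Sham, against 33.1% of all genes tested there. The excess was seen in several roles. Dnah12 was at 12.1 CPM there and at 3.90 and 3.23 CPM in the other Sham libraries, Hydin at 11.3 CPM against 2.37 and 4.28 CPM, and Dnah3 at 4.75 CPM against 0.459 and 0.786 CPM. The 12 dynein heavy chains summed to 75.9 CPM in Sham replicate 1 and to 32.8 and 37.6 CPM in Sham replicates 2 and 3, and the radial spoke and calmodulin spoke genes to 53.1 CPM against 30.3 and 36.6 CPM. Not every member shared it: Dnai1 was lower in Sham replicate 1, at 0.82 times the mean of the other Sham libraries. Ak7, an adenylate kinase of cilia, had 21 counts in Sham replicate 1, and 2 and 0 in the other Sham libraries. Each comparison with Sham is therefore also given without this library.

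**Figure D1:**
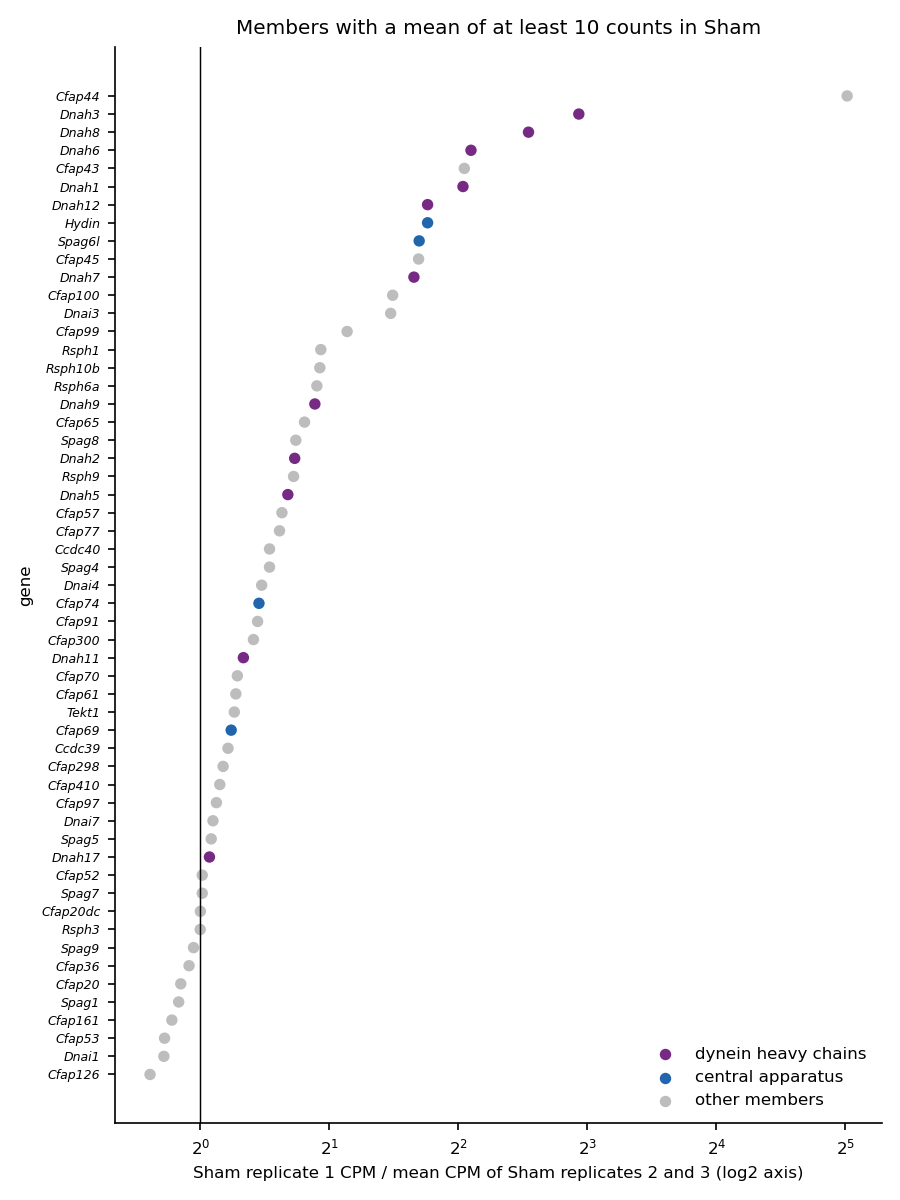
Ratio of the CPM of Sham replicate 1 to the mean CPM of Sham replicates 2 and 3 (x axis, log2 scale) for each member with a mean of at least 10 counts in Sham (y axis, 1 point per gene, coloured by role). Most points lie right of the line at 1, with Cfap44 at 32.3, Dnah3 at 7.64 and Dnah8 at 5.83.

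In Model vs Sham, which asks what embolic stroke did to the cortex, axonemal genes were lower more often than higher. A gene was called when its adjusted p was below 0.05 and its log2 fold change beyond 1 in either direction. Of 51 members tested, 15 fell and 4 rose, while 12% of all 12884 genes tested fell and 9.43% rose. Their median log2 fold change was -0.53, beside 0.01 for all genes tested. In 23 of the 51 all Model libraries lay below all Sham libraries and in 5 all lay above, against 31.4% and 32.2% of all genes tested. Without Sham replicate 1, 13 of 52 tested members were called, 9 lower and 4 higher. Of all genes, 20.3% were called there in either direction, a share not split by direction. The median of the members was then -0.32, beside 0.015 for all genes tested. Of the 19 calls, 11 held without this library. Ccdc40, Cfap157, Cfap52, Cfap61, Cfap65, Dnah9, Dnai1 and Hydin lost theirs, and Cfap161 and Cfap45 gained one. Without Model replicate 2, 12 members were called.

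Among the dynein motor subunits, 3 of 9 tested heavy chains and 1 of 4 tested intermediate chains fell in Model, and 1 intermediate chain rose. Dnah12, an inner arm heavy chain, was at 12.1, 3.90 and 3.23 CPM in Sham and at 1.15, 0.423 and 1.32 CPM in Model (log2 fold change -2.71, SE 0.63, adjusted p = 0.00669). The groups did not overlap, and without Sham replicate 1 the log2 fold change was -1.87 (adjusted p = 0.019). Dnah11, an outer arm heavy chain, was at 3.30, 1.30 and 3.93 CPM in Sham and at 0.382, 1.10 and 0.496 CPM in Model (log2 fold change -2.09, SE 0.57, adjusted p = 0.014). The call of Dnah11 was lost without Sham replicate 3. Its gene model overlaps that of Cdca7l in the RefSeq annotation of build GRCr8, which is not the build used for the counts. Dnah9, also of the outer arm and the heavy chain with the highest mean CPM, was at 26.7, 15.6 and 13.4 CPM in Sham and at 12.8, 7.96 and 5.86 CPM in Model (log2 fold change -1.05, adjusted p = 0.0315). Without Sham replicate 1 its log2 fold change was -0.70 and its adjusted p 0.116. Dnai1, an outer arm intermediate chain, had a log2 fold change of -1.88 (SE 0.61, adjusted p = 0.029). Without Sham replicate 1 it was -1.97 with an adjusted p of 0.0568, and the call was also lost without either of the other Sham libraries. Dnai4, the intermediate chain with the highest mean CPM, had a log2 fold change of -0.54 and was not called (adjusted p = 0.061).

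Dnai3, an inner arm intermediate chain, went the other way. It was at 1.53, 0.841 and 0.262 CPM in Sham and at 6.87, 7.79 and 1.57 CPM in Model (log2 fold change 2.60, SE 0.70, adjusted p = 0.0136). The lowest Model library lay just above the highest Sham library. The gene overlaps Mcoln3 in the annotation, and the strand setting of the authors' counting is not given in the sources used here.

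Of the radial spoke and calmodulin spoke genes, which pass signals from the central apparatus to the motors, 2 of 7 tested fell and 0 rose. Rsph10b showed the largest fall of the tested members: it was at 15.6, 6.04 and 10.4 CPM in Sham and at 0.763, 0.847 and 0.743 CPM in Model (log2 fold change -3.75, SE 0.41, adjusted p = 0.000187). Every Sham library lay far above every Model library, and without Sham replicate 1 the log2 fold change was -3.37 (adjusted p = 0.000717). Cfap61, of the calmodulin spoke complex, fell (log2 fold change -1.01, adjusted p = 0.0139), a call lost without Sham replicate 1 (adjusted p = 0.0517). It overlaps Crnkl1 in the annotation. Cfap91, the spoke gene with the highest mean CPM, had a log2 fold change of 0.04 and was not called.

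Of the central apparatus genes, 2 of 4 tested fell. Hydin, which builds a projection of the central apparatus, was at 11.3, 2.37 and 4.28 CPM in Sham and at 1.68, 1.69 and 1.65 CPM in Model (log2 fold change -1.82, SE 0.55, adjusted p = 0.0224). The Model libraries were nearly equal and below each Sham library. Without Sham replicate 1 the log2 fold change of Hydin was -0.98 and its adjusted p 0.0799. Cfap74, another projection protein, was at 8.94, 4.89 and 8.21 CPM in Sham and at 2.90, 3.22 and 2.73 CPM in Model (log2 fold change -1.31, adjusted p = 0.00526), and kept its call without that library (adjusted p = 0.0247). Cfap69 had the highest mean CPM of this role and a log2 fold change of -0.24 (adjusted p = 0.223).

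Among tektins and microtubule inner proteins, 3 of 8 tested fell. Cfap77 had 24, 17 and 14 counts in Sham and 1, 3 and 1 in Model, and the ratio of Sham to Model over the summed counts was 11 with an exact 95% interval of 4.45 to 35.3 that covers counting error only. Its test gave an adjusted p of 0.00195, and 0.00903 without Sham replicate 1. Spag8 was at 3.14, 1.76 and 2.01 CPM in Sham and at 0.229, 0.423 and 0.661 CPM in Model (log2 fold change -2.37, SE 0.49, adjusted p = 0.00397), with no overlap. Cfap52 also fell (log2 fold change -1.01, adjusted p = 0.0226). Without Sham replicate 1 its log2 fold change was -1.02 and its adjusted p 0.0581. Cfap20, with the highest mean CPM of this role, and Tekt1 had log2 fold changes of -0.45 and -0.28 and were not called. Cfap161, picked out after its values were seen, had 10, 12 and 11 counts in Sham, 0 in each Model and rt-PA library, and 0, 0 and 1 in rt-PA+Acu, too few for the test in any comparison.

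Of the axonemal ruler and tether genes, 1 of 4 tested fell. Ccdc39 and Ccdc40 form the ruler that spaces dyneins along the doublet. Ccdc40 was at 2.09, 1.22 and 1.66 CPM in Sham and at 0.687, 0.593 and 0.661 CPM in Model (log2 fold change -1.34, adjusted p = 0.0227, and 0.0837 without Sham replicate 1). Ccdc39 was at 49.5, 39.3 and 45.9 CPM in Sham and at 28.2, 29.8 and 28.7 CPM in Model. Its change was precise but below the fold threshold (log2 fold change -0.63, SE 0.12, adjusted p = 0.00222). Tekt2 had at most 6 counts in a library and was not tested.

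The dynein assembly genes, whose products fold and load motors in the cytoplasm, were split. Spag1 was at 7.09, 7.72 and 8.21 CPM in Sham and at 2.60, 3.81 and 4.05 CPM in Model (log2 fold change -1.13, SE 0.24, adjusted p = 0.00445). The call of Spag1 was lost without Model replicate 1. Cfap300 rose from 3.30, 2.45 and 2.53 CPM in Sham to 9.85, 7.87 and 5.12 CPM in Model (log2 fold change 1.47, SE 0.30, adjusted p = 0.00397). Cfap298 had a log2 fold change of -0.002 with an SE of 0.126.

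The remaining calls were in genes whose role was not assigned or lies mainly outside the axoneme. Cfap70 gave the smallest adjusted p of all members: it was at 20.9, 17.7 and 16.6 CPM in Sham and at 63.7, 83.2 and 65.0 CPM in Model (log2 fold change 1.95, SE 0.15, adjusted p = 3.41e-05). Cfap157 was at 0.242, 0 and 0.611 CPM in Sham and at 2.98, 1.35 and 1.73 CPM in Model (log2 fold change 2.85, SE 0.77, adjusted p = 0.0136). Its Sham libraries held 3, 0 and 7 counts, and its call was lost without Sham replicate 1 (adjusted p = 0.0504). Spag5, a mitotic spindle protein, was at 12.2, 12.4 and 10.7 CPM in Sham and at 3.28, 1.86 and 2.15 CPM in Model (log2 fold change -2.26, SE 0.26, adjusted p = 0.000212). Of the proliferation genes, 2 of 5 tested rose in Model and 0 fell, where 9.43% of all genes tested rose and 12% fell. Without Sham replicate 1, 0 of 6 tested proliferation genes rose and 0 fell. Cfap65 fell as well (log2 fold change -1.59, adjusted p = 0.0286, and 0.106 without Sham replicate 1). Spag9 was at 737, 759 and 769 CPM in Sham and at 418, 413 and 430 CPM in Model, a log2 fold change of -0.84 (adjusted p = 6.14e-05) that missed the fold threshold. Cfap36 differed in the opposite direction, from 124 to 135 CPM in Sham and from 181 to 213 CPM in Model (log2 fold change 0.62, adjusted p = 0.000712), also under the threshold.

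**Figure D2:**
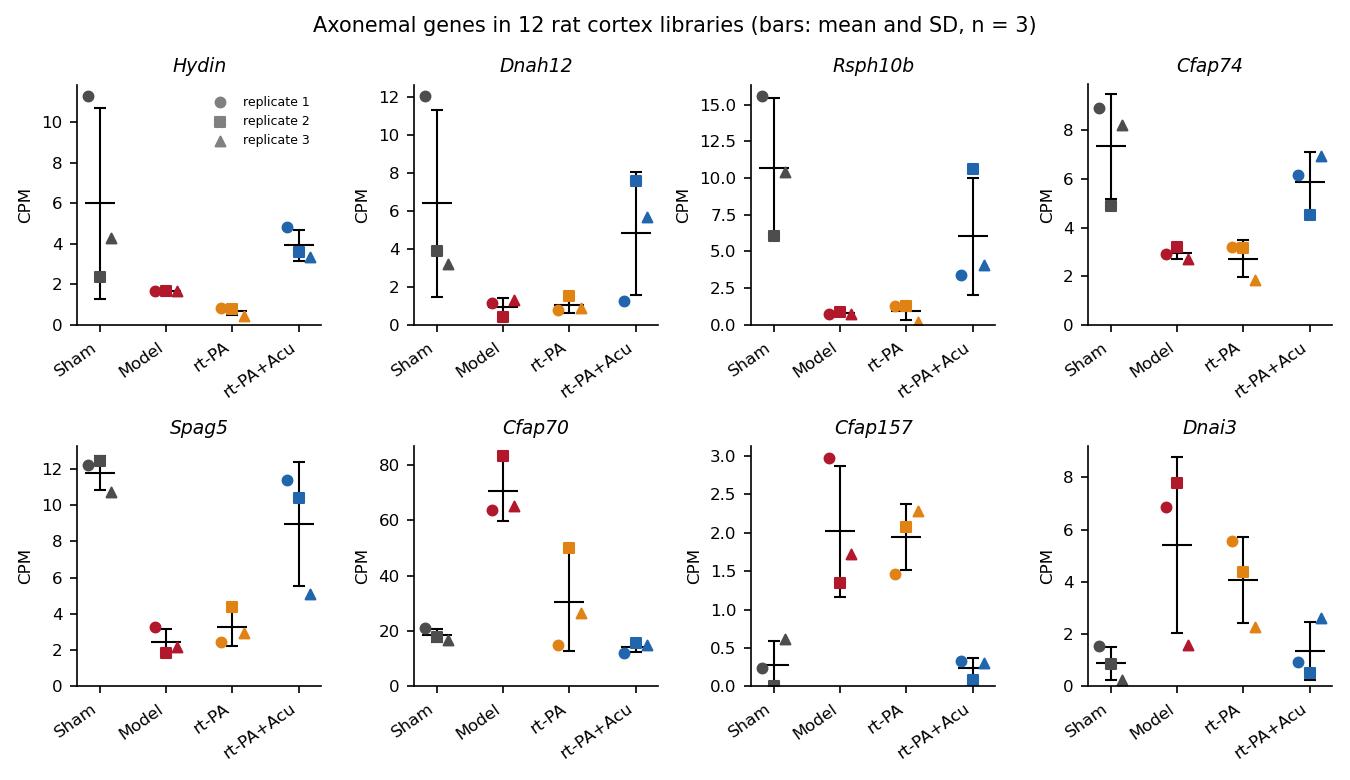
CPM (y axis) of 8 members in each library by group (x axis), with a point per library shaped by replicate number and bars for the mean and SD of 3 libraries. Hydin, Dnah12, Rsph10b, Cfap74 and Spag5 lie low in Model and rt-PA, whereas Cfap70, Cfap157 and Dnai3 lie high in Model.

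rt-PA vs Model asks what delayed thrombolysis changed in the injured cortex. No member was called by edgeR's quasi-likelihood test: 0 of 47 tested rose and 0 fell, as did 0% of all 12941 genes tested in either direction. At an unadjusted p below 0.05, 4 members passed, against 9.92% of all genes, and DESeq2 called 0 members and 0.564% of all genes. The smallest adjusted p of a member was 0.334 and the median log2 fold change was -0.07. Among tested members the largest fall was that of Spag6l, a central apparatus gene, at 1.91, 1.86 and 0.909 CPM in Model and 0.139, 0.287 and 0.516 CPM in rt-PA (log2 fold change -2.29, SE 0.57). The largest rise was that of Dnah11 (log2 fold change 1.28, SE 0.55, adjusted p = 0.501). Hydin was at 0.833, 0.790 and 0.443 CPM in rt-PA, each below the Model libraries (log2 fold change -1.27, adjusted p = 0.374). Cfap70 was spread widely in rt-PA, at 15.1, 50.1 and 26.6 CPM, and had a log2 fold change of -1.21 (adjusted p = 0.38).

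In rt-PA+Acu against rt-PA, which asks what acupuncture added to delayed thrombolysis, axonemal genes were more often higher than lower with acupuncture. Of 50 members tested, 10 rose and 1 fell, where 7.17% of all 12999 genes tested rose and 8.16% fell. The median log2 fold change was 0.54, beside -0.003 for all genes tested, and 38 of the 50 lay above 0. In 19 members all rt-PA+Acu libraries lay above all rt-PA libraries and in 3 all lay below, against 24.4% and 26.7% of all genes. No Sham library enters this comparison. Without rt-PA replicate 3 or without rt-PA+Acu replicate 2, 6 members were called. DESeq2 called 13 members, 10 higher and 3 lower, and 16.2% of all genes, adding Cfap70 and Dnai3 to the lower ones.

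Of the dynein subunits, 2 of 9 tested heavy chains and 1 of 4 tested intermediate chains rose and 0 fell. Dnah5, an outer arm heavy chain, was at 4.16, 3.81 and 3.91 CPM in rt-PA and at 9.94, 8.81 and 6.49 CPM in rt-PA+Acu (log2 fold change 1.09, SE 0.23, adjusted p = 0.0114). Dnah12 was at 0.763, 1.51 and 0.885 CPM in rt-PA and at 1.26, 7.59 and 5.67 CPM in rt-PA+Acu (log2 fold change 2.20, SE 0.65, adjusted p = 0.0338). The groups overlapped, since rt-PA+Acu replicate 1 lay within the rt-PA range. Dnai1 was at 0.486, 0.431 and 0.516 CPM in rt-PA and at 1.94, 1.22 and 1.19 CPM in rt-PA+Acu (log2 fold change 1.58, SE 0.42, adjusted p = 0.0236). It rested on 7, 6 and 7 counts against 23, 14 and 16. Its call was lost without rt-PA replicate 1, 2 or 3, and without rt-PA+Acu replicate 1 or 2. Dnah9 lay above rt-PA in every library, at 13.9, 15.1 and 13.1 CPM against 8.74, 7.04 and 5.90 CPM, with a log2 fold change of 0.96 (adjusted p = 0.00986) just under the fold threshold. Dnai3 had a log2 fold change of -1.56 (adjusted p = 0.079) and was not called by edgeR, while DESeq2 gave an adjusted p of 0.0417.

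Of the radial spoke and calmodulin spoke genes, 2 of 7 tested rose, and of the central apparatus genes, 2 of 4. Rsph10b was at 1.32, 1.29 and 0.221 CPM in rt-PA and at 3.37, 10.6 and 4.10 CPM in rt-PA+Acu, the largest rise of a tested member (log2 fold change 2.65, SE 0.67, adjusted p = 0.0202). Cfap61 rose from 0.902, 1.65 and 2.58 CPM to 4.38, 6.98 and 4.63 CPM (log2 fold change 1.64, adjusted p = 0.0211). Hydin was at 0.833, 0.790 and 0.443 CPM in rt-PA and at 4.80, 3.58 and 3.36 CPM in rt-PA+Acu (log2 fold change 2.49, SE 0.37), with the smallest adjusted p of the members at 0.00369. All rt-PA+Acu libraries of Hydin lay above 3 CPM and all rt-PA libraries lay below 1 CPM. Cfap74 rose from 3.19, 3.16 and 1.84 CPM to 6.15, 4.54 and 6.94 CPM (log2 fold change 1.11, SE 0.31, adjusted p = 0.0296).

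Among the other roles, 0 of 7 tested tektins and microtubule inner proteins and 0 of 3 tested ruler and tether genes were called. Cfap77 had 6, 0 and 1 counts in rt-PA and 8, 18 and 28 in rt-PA+Acu, did not pass the filter on low counts here and was called higher when no filter was used. Ccdc39 was at 30.5, 30.8 and 27.7 CPM in rt-PA and at 47.4, 44.6 and 37.4 CPM in rt-PA+Acu, a log2 fold change of 0.54 (adjusted p = 0.0158) under the fold threshold. Spag1 rose from 2.43, 3.31 and 3.39 CPM to 8.68, 4.97 and 5.75 CPM (log2 fold change 1.09, adjusted p = 0.0268). Spag5 rose from 2.43, 4.38 and 2.95 CPM to 11.4, 10.4 and 5.07 CPM (log2 fold change 1.45, adjusted p = 0.0209). Cfap299 rose from 0.486, 0.431 and 0.369 CPM to 1.60, 1.31 and 2.24 CPM (log2 fold change 1.98, SE 0.42, adjusted p = 0.011). The fall was that of Cfap157, from 1.46, 2.08 and 2.29 CPM to 0.337, 0.0873 and 0.299 CPM (log2 fold change -2.94, SE 0.52, adjusted p = 0.00614). Cfap70 was at 12.1, 15.8 and 14.8 CPM in rt-PA+Acu, where only rt-PA replicate 1 reached as low, and its log2 fold change of -1.10 was not called by edgeR (adjusted p = 0.0637) but was by DESeq2 (-1.09, adjusted p = 0.018). Spag9 was at 729, 675 and 537 CPM against 378, 436 and 380 CPM in rt-PA (log2 fold change 0.70, adjusted p = 0.00947), under the threshold.

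**Figure D3:**
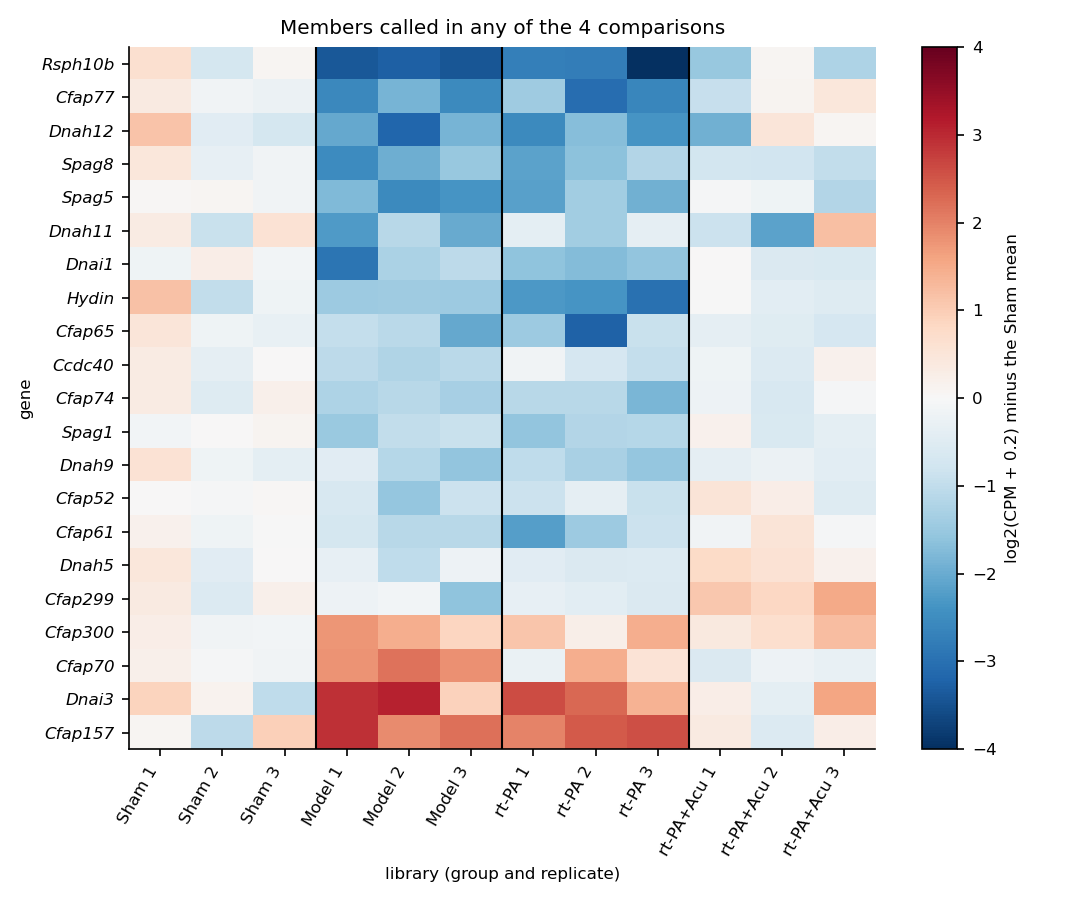
Levels of the 21 members called in any comparison (rows) in the 12 libraries (columns), as log2 of CPM plus 0.2 minus the mean of the Sham libraries, from blue (lower) to red (higher). Most rows are blue in the Model and rt-PA columns and near white in rt-PA+Acu, and the 4 genes called higher in Model are red there.

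Model vs Sham and rt-PA+Acu against rt-PA share no library, so their values can be set side by side. Called in both were 9 genes (Rsph10b, Dnah12, Spag5, Hydin, Dnai1, Cfap74, Spag1, Cfap61 and Cfap157), which are 47.4% of the 19 called in the first and 81.8% of the 11 called in the second. Over all genes, 1449 were called in both, which are 52.4% and 72.7% of the calls, and 1447 of them changed in opposite directions. All 9 changed in opposite directions. Without Sham replicate 1, 5 of the 9 were called in both (Cfap74, Dnah12, Rsph10b, Spag1 and Spag5). The second comparison depended on single libraries too. There Cfap74, Dnah12, Spag1 and Spag5 all lost their calls without rt-PA replicate 1, and again without rt-PA replicate 3. Rsph10b lost its call without rt-PA+Acu replicate 2. Over the 48 members tested in both, Pearson's r of the log2 fold changes across genes was -0.839 and Spearman's rho -0.741, and 81.2% had opposite signs. Over all 12753 genes tested in both, the values were -0.834, -0.811 and 81.6%. Genes are not independent replicates.

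**Figure D4:**
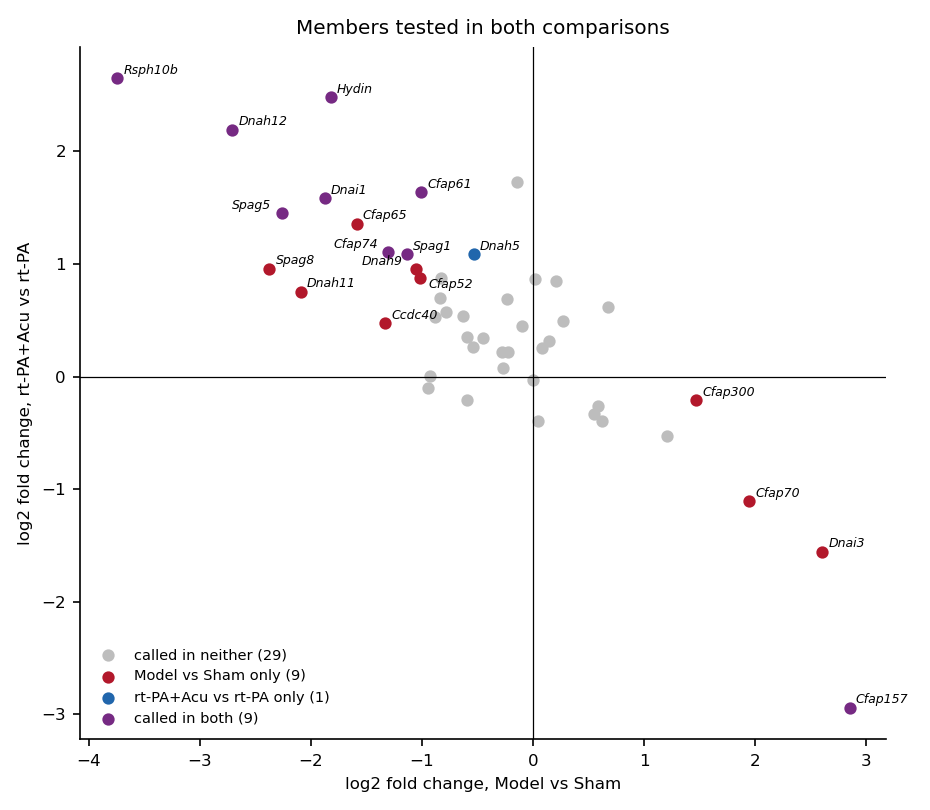
Log2 fold change in rt-PA+Acu against rt-PA (y axis) against that in Model vs Sham (x axis) for the 48 members tested in both, 1 point per gene, coloured by call. The 9 genes called in both lie in the upper left quadrant, apart from Cfap157 in the lower right.

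In rt-PA+Acu vs Sham, which asks what remained different from uninjured cortex, edgeR called no member: 0 of 52 tested rose and 0 fell, where 0.916% of all 12775 genes rose and 1.14% fell. At an unadjusted p below 0.05, 8 members passed, against 23.2% of all genes, and DESeq2 called 1 member, Rsph9, and 3.3% of all genes. Rsph9, a radial spoke head protein named for this call, had the smallest edgeR adjusted p of a member at 0.0605. The median log2 fold change was -0.17, and 0.03 without Sham replicate 1, where 0 members were called as well. Among tested members the largest rise was that of Cfap299 (log2 fold change 1.33, SE 0.45, adjusted p = 0.131) and the largest fall that of Spag6l (log2 fold change -1.56). This comparison and Model vs Sham share the Sham libraries. Hydin was at 3.91 CPM on average in rt-PA+Acu (SD 0.779, n = 3) and at 5.98 CPM in Sham (SD 4.69, n = 3). Rsph10b was at 6.01 CPM (SD 3.96, n = 3) and 10.7 CPM (SD 4.8, n = 3), with overlapping libraries. Cfap70 was at 14.2 CPM in rt-PA+Acu and 18.4 CPM in Sham, with every rt-PA+Acu library below every Sham library (log2 fold change -0.37, adjusted p = 0.219).

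Other genes of motile cilia, from a list that holds none of the 71, were described beside them. In Model vs Sham, 12 of 38 tested fell and 1 rose (median log2 fold change -0.75), where 12% of all genes tested fell and 9.43% rose. With Sham replicate 1 left out, 8 of 39 fell and 2 rose (median -0.59). There 20.3% of all genes were called in either direction, a share not split by direction. In rt-PA+Acu against rt-PA, 11 of 39 of this list rose and 0 fell (median 0.67), where 7.17% of all genes rose and 8.16% fell. In rt-PA+Acu vs Sham, with all Sham libraries, 1 of 42 fell and 0 rose (median 0.01), where 1.14% of all genes fell and 0.916% rose. The gene with the highest mean CPM was Dnal1, a dynein light chain. Its log2 fold changes were -0.83 in Model vs Sham (adjusted p = 0.000236) and 0.67 in rt-PA+Acu against rt-PA (adjusted p = 0.0051). In rt-PA+Acu vs Sham the log2 fold change of Dnal1 was -0.53 (adjusted p = 0.024). None was called, as each was under the fold threshold. Rfx3, a transcription factor of ciliary genes, averaged 25.2 CPM in Sham (SD 4.45) and 14.9 CPM in Model (SD 5.6). In rt-PA it averaged 12.7 CPM (SD 1.03) and in rt-PA+Acu 31.5 CPM (SD 16.6). It rose in rt-PA+Acu against rt-PA (log2 fold change 1.31, adjusted p = 0.024), on 210, 572 and 361 counts against 168, 176 and 186. In Model vs Sham its log2 fold change of -0.745 (adjusted p = 0.0427) was under the fold threshold. The summed CPM of this list ranged from 477 to 575 in Sham, 309 to 365 in Model, 279 to 303 in rt-PA and 418 to 476 in rt-PA+Acu. Of the genes of the primary cilium, 1 of 28 tested fell in Model vs Sham (median -0.24) and 0 were called in rt-PA+Acu against rt-PA (median 0.30).

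**Figure D5:**
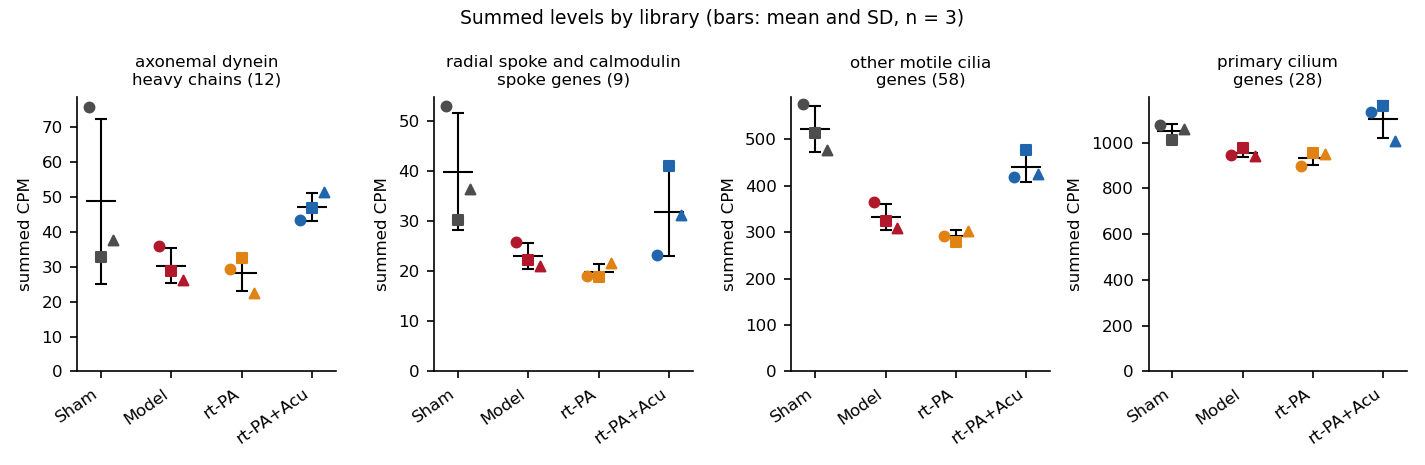
Summed CPM (y axis, from 0) of the 12 dynein heavy chains, the 9 radial spoke and calmodulin spoke genes, the 58 other motile cilia genes in the table and the 28 primary cilium genes by group (x axis), with a point per library and bars for the mean and SD of 3 libraries. Sham replicate 1 is the highest library for the first 3 lists, and in the list of other motile cilia genes all Sham and rt-PA+Acu libraries lie above all Model and rt-PA libraries.

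Markers of several cell types moved in the same comparisons. The 8 ependymal markers in the table summed to 42.3 to 43.8 CPM in Sham and 53.4 to 74.6 CPM in Model, where Rarres2, which many cells express, rose (log2 fold change 1.88, adjusted p = 0.000173). Without Rarres2 the other 7 summed to 29.7 to 31.2 CPM in Sham, 17.9 to 21.4 CPM in Model, 12 to 20.3 CPM in rt-PA and 24.7 to 33.2 CPM in rt-PA+Acu, so the sum was then lower in Model than in Sham. Most of this sum was Tppp3, at 15.5 CPM on average in Sham and 6.87 CPM in Model, and Enkur, at 11.8 and 11.9 CPM. Other brain cells can also express both, and most of the fall of the sum lay in Tppp3. In rt-PA+Acu against rt-PA, 0 of 4 tested ependymal markers were called (median log2 fold change 0.56). Tppp3 fell (log2 fold change -1.17, adjusted p = 0.0111), Enkur had a log2 fold change of 0.03 and Dynlrb2 of -1.43, neither called in Model vs Sham. Choroid plexus markers, of which 2 of 4 tested rose in Model, summed to 6.85 to 7.87 CPM in Sham, 15.3 to 56.7 in Model, 15.5 to 75.7 in rt-PA and 6.55 to 33.4 in rt-PA+Acu. The rise lay in Kl (log2 fold change 4.31, adjusted p = 9.81e-05) and Aqp1 (3.29, adjusted p = 0.017), whereas the defining markers Ttr and Otx2 had at most 3 and 0 counts in a library. Oligodendrocyte markers fell in Model for 5 of 6 tested, from sums of 11970 to 17900 CPM to 1672 to 8503 CPM. In Model vs Sham, 5 of 7 astrocyte markers fell and 1, Gfap, rose, 2 of 4 tested microglia markers fell, and 4 of 8 tested markers of infiltrating myeloid cells rose. In rt-PA+Acu against rt-PA, 4 of 7 astrocyte markers rose and 8 of 9 markers of infiltrating myeloid cells fell. Markers of striatal neurons were lower in Model and in rt-PA+Acu than in Sham (6 of 6 and 5 of 6 tested). In Sham they summed to 368 CPM in replicate 1 and to 967 and 780 CPM in the other libraries. The part of these cell types in the changes of the axonemal genes was not tested.

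RFX transcription factors and FOXJ1 are known to switch on motile cilia genes, so the promoters of the members were searched for their motifs. RefSeq (build GRCr8) gave windows of 300 bases, 250 before and 50 after a transcription start, for 60 of the 71 members. The core RFX motif GTTGCC, on either strand, lay in a window of 23 of these 60 genes (38.3%) and of 13.1% of all 27457 genes. Counted by window, it lay in 27 of 99 member windows (27.3%) and 12.2% of all 33469. It was found for 4 of the 13 genes lower in Model that had a window (Cfap74, Dnah11, Hydin and Spag8) and for 0 of the 3 higher ones. The inverted RFX repeat, GTTNCC followed after 1 to 3 bases by GGNAAC, which overlaps the core motif, was found for Cfap20dc and Cfap298 (3.33% of members and 0.885% of all genes). The forkhead core TGTTTAC was found for 3 members (5% and 4.13% of all genes). A match describes the letters and is not a binding site.

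The promoters of Hydin and Spag8 are shown because both genes fell in Model and carry the core motif close to the start. Those of Cfap20dc and Cfap298 carry the inverted repeat, and neither gene was called in any comparison. That of Cfap70, the member with the smallest adjusted p among those that rose in Model, holds no match. Each runs 5′ to 3′ along the strand of its gene, and capitals mark the matches on either strand (GGCAAC is GTTGCC read on the other strand).
Hydin promoter, chr19:55146216-55146515, plus strand: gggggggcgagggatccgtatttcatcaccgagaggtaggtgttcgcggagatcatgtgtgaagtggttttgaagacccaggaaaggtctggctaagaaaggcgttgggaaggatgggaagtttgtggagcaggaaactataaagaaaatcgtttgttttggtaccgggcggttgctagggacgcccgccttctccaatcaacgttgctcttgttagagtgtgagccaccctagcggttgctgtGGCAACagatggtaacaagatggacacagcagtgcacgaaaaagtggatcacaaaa
Spag8 promoter, chr5:62699615-62699914, minus strand: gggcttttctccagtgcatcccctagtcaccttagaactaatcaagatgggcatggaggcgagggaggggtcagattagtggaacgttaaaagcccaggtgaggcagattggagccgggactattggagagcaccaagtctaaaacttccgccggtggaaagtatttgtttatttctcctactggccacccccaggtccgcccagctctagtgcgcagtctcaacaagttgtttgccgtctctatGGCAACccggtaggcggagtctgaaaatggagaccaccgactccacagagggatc
Cfap20dc promoter, chr15:18661312-18661611, plus strand: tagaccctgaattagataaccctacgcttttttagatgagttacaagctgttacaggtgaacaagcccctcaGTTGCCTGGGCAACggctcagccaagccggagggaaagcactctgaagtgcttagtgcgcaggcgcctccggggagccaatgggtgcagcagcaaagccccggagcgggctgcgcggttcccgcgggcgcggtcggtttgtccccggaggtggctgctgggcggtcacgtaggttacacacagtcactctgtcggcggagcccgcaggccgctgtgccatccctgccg
Cfap298 promoter, chr11:43677333-43677632, minus strand: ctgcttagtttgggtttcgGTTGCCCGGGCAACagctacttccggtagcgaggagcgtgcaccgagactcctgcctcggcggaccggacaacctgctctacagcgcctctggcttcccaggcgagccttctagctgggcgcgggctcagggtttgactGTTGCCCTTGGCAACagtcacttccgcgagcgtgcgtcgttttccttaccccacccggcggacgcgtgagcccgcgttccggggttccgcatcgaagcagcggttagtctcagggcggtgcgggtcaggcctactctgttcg
Cfap70 promoter, chr15:3901483-3901782, plus strand: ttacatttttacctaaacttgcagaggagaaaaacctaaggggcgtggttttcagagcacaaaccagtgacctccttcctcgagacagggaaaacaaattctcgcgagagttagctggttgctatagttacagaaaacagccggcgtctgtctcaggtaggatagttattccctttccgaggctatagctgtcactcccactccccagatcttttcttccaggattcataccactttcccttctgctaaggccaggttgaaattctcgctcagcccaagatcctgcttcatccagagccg
The match began 6 bases before the start in Hydin and 5 bases before it in Spag8. Cfap298 holds the inverted repeat at 2 places, and Cfap20dc at 1. Cfap20dc differed by -0.60 on the log2 scale in Model vs Sham (adjusted p = 0.0124), under the fold threshold, and by 0.36 in rt-PA+Acu against rt-PA (adjusted p = 0.448).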

How the data were processed

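The authors deposited 1 table of raw counts, whole numbers for each gene symbol in each library, neither normalized nor pooled. Per the labels, reads were processed with STAR 2.7.10a, Salmon 1.9.0 and featureCounts 2.0.1 against build mRatBN7.2. The strand setting and annotation release are not given in the sources used here, so genes that overlap cannot be told apart with certainty. Overlaps were read from RefSeq on build GRCr8, whereas the counts were made against mRatBN7.2, and the paper names the Ensembl annotation. Libraries were grouped by their labels. The members, their roles and the other gene lists were chosen with earlier results of these data known.

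A comparison used only the 6 libraries of its groups and was fitted in R 4.3.3 with edgeR 4.0.16 (TMM scaling, filterByExpr, glmQLFit and glmQLFTest) and Benjamini-Hochberg adjustment over all genes tested. Genes were called at an adjusted p below 0.05 and an absolute log2 fold change over 1. CPM values used TMM factors over all 12 libraries. DESeq2 1.42.0, RLE size factors, library size alone, other filters on low counts, 1 fit over all 12 libraries, a replicate block and leaving out each library were alternatives. The code was tested on simulated data. Python 3.11.15 and matplotlib 3.10.9 were used for plots. Libraries held 11678450 to 13616935 counts, and limits from counts cover counting error only. Reads of 1 rat are 1 sample. The edgeR p-values set the group difference against the spread between 3 rats a group, estimated with information shared across genes.

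Named members were those called in any comparison, the 10 with the highest mean CPM, the 6 chosen by symbol, the highest of each role, and the largest rise and fall of each comparison. Members that pass the filter in no comparison were named without a fold change. Of each other list, at most 3 genes of highest mean CPM were named, ependymal markers in full. Cfap161, Dnah3, Dnah8, Cfap44, Cfap45 and Rsph9 were named after their values were seen. The other lists without Sham replicate 1, the ependymal sum without Rarres2 and the naming of choroid plexus genes were added after seeing the data. Levels per transcript length were planned and not made, since no lengths were used here.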

Additional observations from a re-analysis of the deposited data

How the results depend on the processing

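In Model vs Sham, 19 members were called. With at least 10 counts required in every library 9 were called, since that filter tests 34 members only. Leaving out 1 library at a time gave 12 to 17. The lowest count came without Model replicate 2, where Ccdc40, Cfap52, Cfap61, Cfap65, Dnah9, Dnai1, Dnai3 and Hydin lost their calls. In rt-PA vs Model, 0 members were called, and 4 with an unadjusted p below 0.05 and the fold threshold. In rt-PA+Acu against rt-PA, 11 were called, 17 without a fold threshold, 6 with at least 10 counts in every library, and 6 to 12 when 1 library was left out. Without rt-PA replicate 3, Cfap74, Dnah12, Dnai1, Spag1 and Spag5 lost their calls, and without rt-PA+Acu replicate 2, Cfap61, Dnah12, Dnai1, Rsph10b and Spag5 did. The median there was 0.54, and 0.43 with library size alone, 0.47 without a filter, 0.35 with at least 10 counts in every library and 0.48 to 0.67 with 1 library left out. Library size alone also moved the median of all genes, to -0.10. In rt-PA+Acu vs Sham, 0 members were called, 4 with an unadjusted p below 0.05 and the fold threshold, 1 with DESeq2 (Rsph9), 1 without a filter (Cfap161) and 0 to 2 with 1 library left out. The cause of these differences was not tested beyond the number of members each filter admits. No called value changed its sign, while the median in rt-PA+Acu vs Sham, -0.17, was 0.03 without Sham replicate 1.

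The replicate numbers showed no strong pairing of the rats, as the correlations of same-numbered libraries lay between -0.12 and 0.14. Whether the numbers stand for a pairing or a batch cannot be told from these values. With the replicate block, 19, 0, 8 and 0 members were called in the 4 comparisons. In rt-PA+Acu against rt-PA, Cfap74, Dnai1 and Spag1 lost their calls.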
